A study of Gallus gallus with 6 samples.

Results

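The genes described here are those that peaked in the presumptive forelimb mesenchyme of the chick embryo at Hamburger-Hamilton stage 15 (HH15), measured by RNA sequencing. Levels are given as CPM, the reads of a gene scaled to 1000000 reads counted in its library. A gene was taken when its log2(CPM + 1) in presumptive forelimb HH15 was at least 1, a difference of 2-fold, above the highest of the other 5 libraries. Of 17781 genes in the table, 12737 reached 1 CPM in at least 1 library, and 89 of these met the rule, which is 0.699% of them. 3 named genes were left out by the rule, 2 of which met the threshold, so the set holds 87 genes. The same values that chose the members are the values given below, so every level and difference is a description and none is a test.

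The study compared mesenchyme of limb-forming and non-limb regions of the embryo, all dissected directly from untreated chick embryos and sequenced from polyadenylated RNA. There was 1 library for each tissue and stage. Forelimb was sampled at 2 stages, as the presumptive field at HH15 and as the bud at HH19. The hindlimb was taken at HH18. Neck, flank, and flank and neck together, all of HH19, are the tissues that form no limb. The flank library carries 9 in its title and HH19 in its source label, and is called flank HH19 here. The number of embryos behind each library is not given in the sources used here. With 1 library per group there is no replicate check, no p-value and no standard deviation, and tissue, stage and library cannot be told apart for the HH15 sample, which is the youngest and the only one of its stage. The libraries held from 7130877 reads (presumptive forelimb HH15) to 9623046 (hindlimb HH18), and 3 reads, the limit that a count of 0 allows, correspond to 0.312 to 0.421 CPM. 95% Wilson intervals cover counting error only. In bulk tissue, fewer cells of a type and less RNA per cell cannot be told apart.

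The limb field is a stretch of lateral plate mesoderm, the sheet of mesoderm that lies to the side of the somites and the intermediate mesoderm. At the forelimb level it is marked by TBX5, a T-box transcription factor that is needed for the forelimb to form, and at the hindlimb level by TBX4 and PITX1. Outgrowth follows when FGF10 from the mesenchyme and FGF8 from the overlying ectoderm come to sustain each other. Before and during that time the trunk is still lengthening from the tail bud, where caudal-type homeobox factors and Wnt signals are active.

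The limb markers were those of forelimb and not hindlimb level, although the forelimb marker was also read in the tissues that form no limb. TBX5 stood at 336 CPM in presumptive forelimb HH15, 182 in the HH19 forelimb, 0.520 in the HH18 hindlimb, 165 in neck, 102 in flank and 189 in flank and neck. Its excess over the next library was 0.83 on the log2(CPM + 1) scale, under the threshold, so TBX5 is no member. PRRX1, a homeobox factor of limb and lateral plate mesenchyme, was at 491 CPM in the HH15 library and between 117 and 430 in the others. These were the 2 of 13 measured limb field genes that were highest in the HH15 library (15.4%, beside 16.5% of all genes). The median excess of the 13 was -1.37, beside -0.41 for all genes measured. The list includes TBX4 and PITX1, of hindlimb level, and FGF10 and FGF8, of outgrowth. Its summed level was 2073 CPM in the HH15 library, 1036 in the HH19 forelimb and 1258 in the HH18 hindlimb. In neck, flank and flank and neck the sum was 1935, 2887 and 742 CPM. HAND2, a factor of posterior limb and lateral plate mesoderm, was at 262 CPM in the HH15 library and 311 in flank. TBX4 and PITX1, at 131 and 196 CPM in hindlimb HH18, were at 0.841 and 1.68 in presumptive forelimb HH15. FGF10 was at 6.31 CPM there against 13.4 in the HH19 forelimb and 20.4 in the HH18 hindlimb, and FGF8 was at 0.280, below the limit of 3 reads. The HH15 library was the highest of the 6 for TBX5 and below both later buds for FGF10.

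The set differed in make-up from the genes that peaked elsewhere. By the same rule 19 genes peaked in forelimb HH19 (0.149% of the genes measured), 27 in the HH18 hindlimb (0.212%), 182 in neck HH19 (1.43%), 105 in flank HH19 (0.824%) and 356 in flank and neck HH19 (2.8%). Of the 89 that peaked in presumptive forelimb HH15, 40.4% reached 5 CPM there, whereas 80.2% to 85.2% of the genes that peaked in each of the other 5 libraries reached 5 CPM in their own. The median level of a peaking gene in its own library was 3.93 CPM in presumptive forelimb HH15 and 13.5 to 36.4 CPM in the others. Entries known only by an identifier made up 34.8% of the HH15 genes and 7.41% to 16.3% of the others. Small structural RNAs, the non-coding RNAs of ribosomes, spliceosomes and nucleoli, supplied 15 of the 89 and 0 of the genes that peaked in any other library. The differences between libraries were not tested, since each is 1 library. The flank and neck library stood apart, with 45.8% of all peaking genes, and without it the set of 87 becomes 95.

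**Figure D1:**
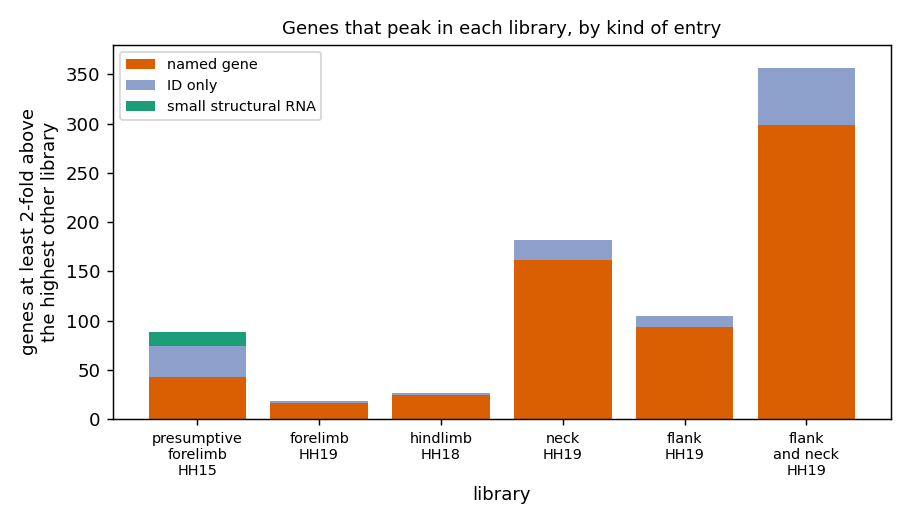
Bars show how many genes stood at least 2-fold (log2(CPM + 1) scale) above the highest other library, for each of the 6 libraries, stacked by kind of table entry. Presumptive forelimb HH15 has 89 such genes, and it is the one bar with small structural RNAs, 15 of them.

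Most members were low. In presumptive forelimb HH15 they ranged from 1.12 to 975 CPM with a median of 3.79 CPM, or 27 reads. 10 members rested on fewer than 10 reads there, 29 on fewer than 20, and 23 on 100 or more. The excess over the next library had a median of 1.27 and ran from 1.01 to 2.95 on the log2(CPM + 1) scale; it was under 1.5 for 61 members and at least 2 for 10. In the other 5 libraries, 50 members stayed under 1 CPM throughout, 32 had at most 3 reads in each, and 6 had no read at all, while 22 reached 1 CPM in all 5. The Wilson interval in presumptive forelimb HH15 lay above those of the other 5 libraries for 84 of the 87, against 3.12% of all genes measured, a share that the rule itself fixes. Leaving out flank HH19 widened the set from 87 to 132 genes, and leaving out any other single library gave 95 to 121.

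**Figure D2:**
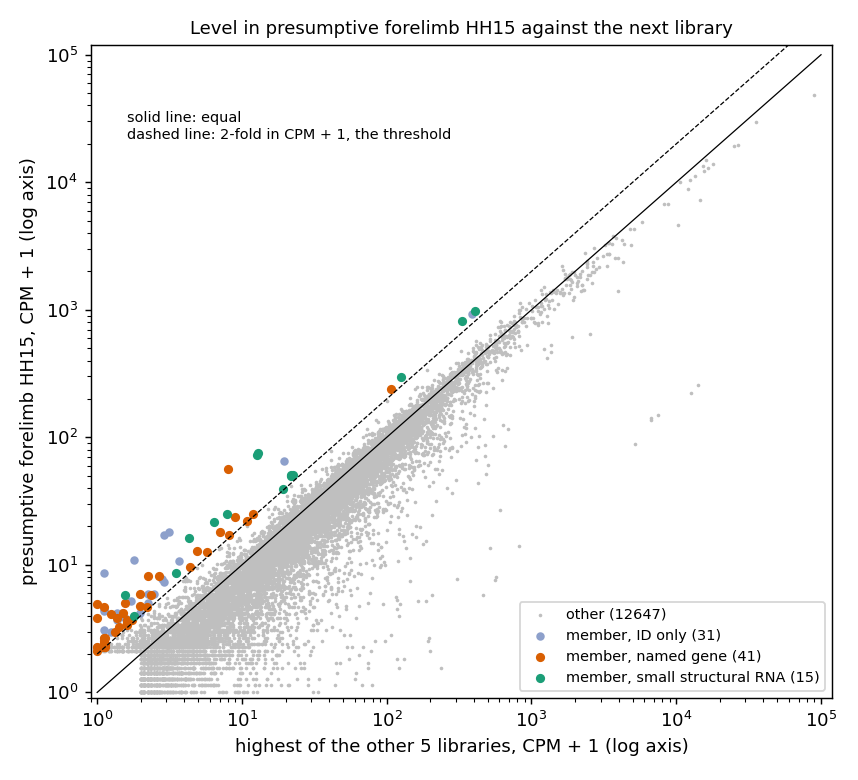
Each point is 1 gene, with CPM + 1 in presumptive forelimb HH15 against the highest CPM + 1 of the other 5 libraries, both on log axes. Members, coloured by kind of entry, lie on or above the dashed 2-fold line and most of them sit near it in the low range, with a median of 3.79 CPM.

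By what they encode, 41 members were named genes outside the small structural RNAs, 15 were small structural RNAs and 31 carried an identifier only. The 41 fell into 11 receptors, channels and transporters, 10 cytoplasmic or cytoskeletal proteins, 7 adhesion and matrix proteins, 4 transcription factors or nuclear receptors, 4 enzymes, 3 epithelial surface or filament proteins and 2 secreted proteins.

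**Figure D3:**
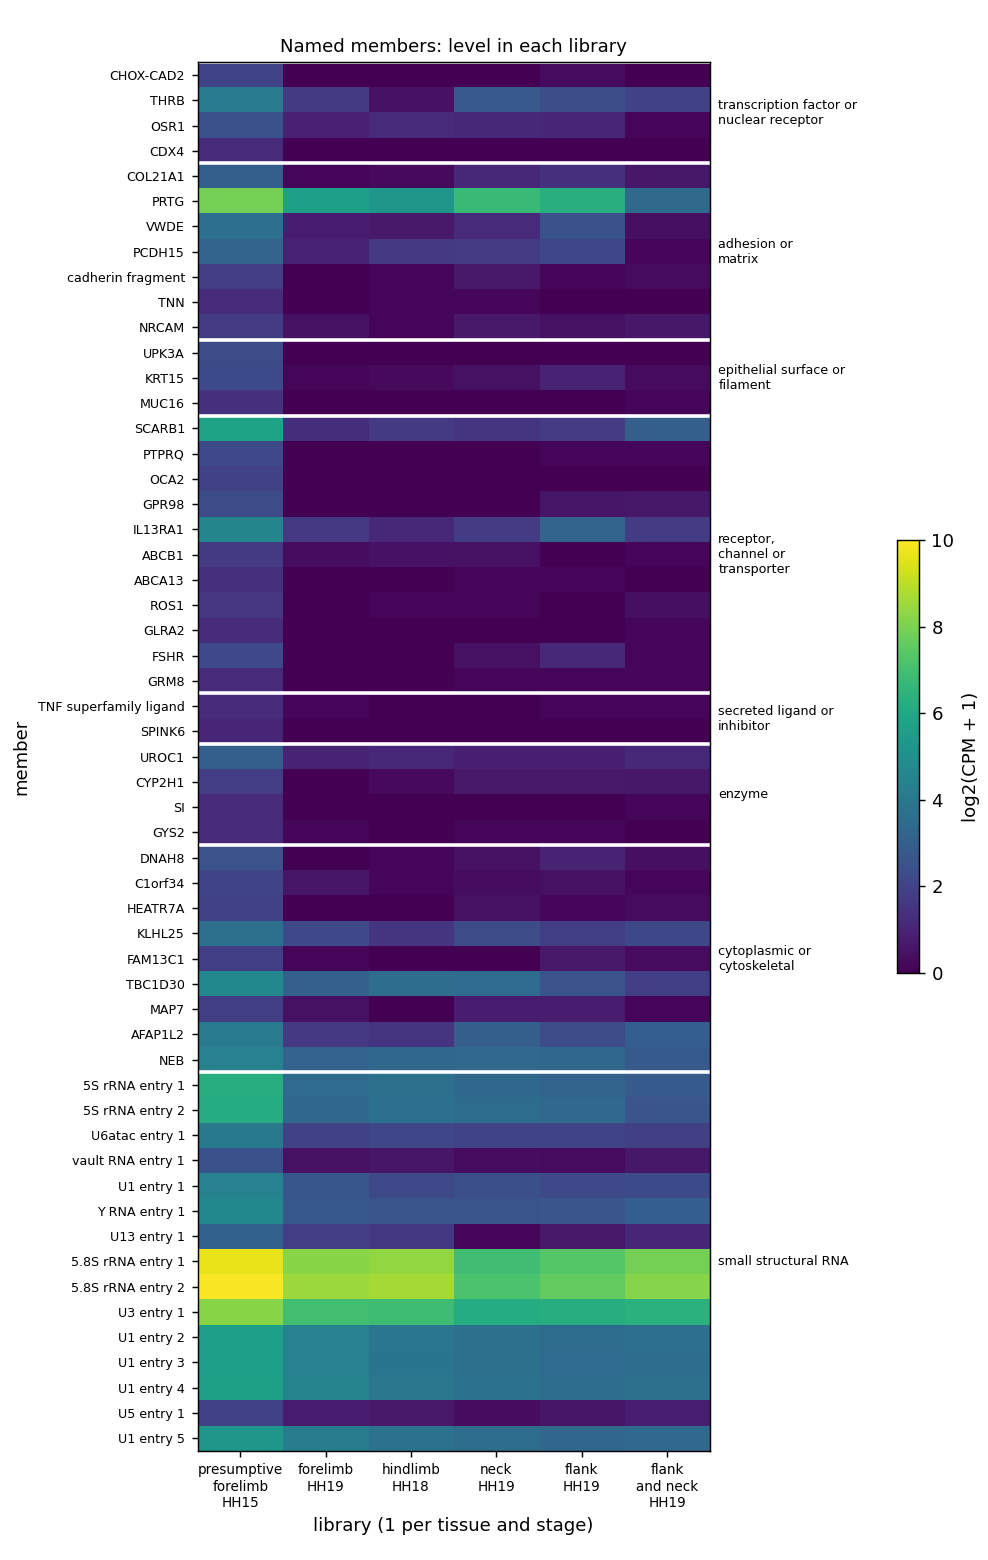
Colour gives log2(CPM + 1) of 40 of the 41 named members and the 15 small structural RNA members in the 6 libraries, grouped by role. The left column, presumptive forelimb HH15, is the brightest in every row by the rule, and PRTG, the 5.8S rRNA entries and U3 are also bright in the other libraries.

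Among the 4 transcription factors and nuclear receptors, OSR1 is the one with a known place in this tissue. OSR1, an odd-skipped zinc finger factor of intermediate and lateral plate mesoderm, was at 4.77 CPM in presumptive forelimb HH15 (Wilson interval 3.41 to 6.66, 34 reads), 0.880 in the HH19 forelimb, 1.35 in the HH18 hindlimb, 1.23 in neck, 1.09 in flank and 0.112 in flank and neck. It was 3.53-fold above hindlimb HH18, and the other 4 libraries lay at or below that level. Its relative OSR2, named after its values were seen, was at 0.280 CPM in the HH15 library and highest in flank, at 1.93.

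THRB, the beta receptor for thyroid hormone, was at 17.1 CPM in presumptive forelimb HH15 (14.3 to 20.4), 2.26 in the HH19 forelimb, 0.416 in the HH18 hindlimb, 6.02 in neck, 4.23 in flank and 2.91 in flank and neck. The excess over neck was 2.84-fold. In the table THRB overlaps RARB, the retinoic acid receptor beta, on the other strand. RARB had another order, with 45.3 CPM in presumptive forelimb HH15, 96.7 in neck and 63.9 in flank. Whether the counting used strand is not given in the sources used here, so reads in the shared stretch cannot be assigned to 1 of the pair.

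The other 2 entries belong to the caudal family, homeobox factors that pattern the posterior trunk and act upstream of Hox genes. CDX4 had 9 reads, or 1.26 CPM, in presumptive forelimb HH15 and none in the other 5 libraries, so it was at least 3.35-fold higher there, taking 3 reads per library as the floor. The CHOX-CAD2 entry, a caudal-type homeobox fragment, was at 3.09 CPM (22 reads) in presumptive forelimb HH15, 0.242 in flank, and 0 in the HH19 forelimb, hindlimb HH18, neck and flank and neck. Both were thus read almost only in the HH15 library, at few reads. Both lie on chromosome 4, and whether they are 2 genes or 2 entries of 1 gene was not determined. CDX2, no member with an excess of 0.95, was at 12.3 CPM there, 0.126 in the HH19 forelimb, 1.04 in the HH18 hindlimb, 0 in neck, 5.92 in flank and 0.112 in flank and neck. CDX1 had 0.280 CPM in the HH15 library, under the floor.

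Among the 7 adhesion and matrix members the next library was neck HH19 for 4 and flank HH19 for 3, beside 28.9% and 15.1% of the other genes highest in presumptive forelimb HH15. For TNN and NRCAM that place rests on 1 and 5 reads, as many as in another library. Protogenin (PRTG), a transmembrane protein of the immunoglobulin superfamily present in the early embryo, had the most reads of them. It was at 237 CPM in presumptive forelimb HH15 (226 to 249, 1693 reads), 49.5 in the HH19 forelimb, 37.8 in the HH18 hindlimb, 106 in neck, 77.5 in flank and 9.97 in flank and neck. The excess over neck was 2.25-fold, and the flank and neck library was far below both of the single tissues it is labelled with.

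COL21A1, a collagen of the fibril-associated type, was at 7.15 CPM in presumptive forelimb HH15 (5.44 to 9.40), 0.126 in the HH19 forelimb, 0.208 in the HH18 hindlimb, 1.23 in neck, 1.69 in flank and 0.560 in flank and neck. It was 4.23-fold above flank, and both later limb buds were under the limit of 3 reads. VWDE, a secreted protein with von Willebrand factor D and EGF domains, was at 11.6 CPM (9.39 to 14.4), 0.754, 0.624, 1.35, 4.71 and 0.336 in the same order of libraries. Its excess of 1.15 was set by flank HH19 and became 2.43 without that library.

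PCDH15, a protocadherin best known from the tip links of inner-ear hair cells, is present in the table as 2 entries. The entry that is a member, a short one of 547 bases, was at 8.69 CPM in presumptive forelimb HH15 (6.78 to 11.1), 1.01 in the HH19 forelimb, 2.18 in the HH18 hindlimb, 2.46 in neck, 3.38 in flank and 0.112 in flank and neck. The second entry kept that order at 30.6, 6.53, 8.0, 17.1, 19.6 and 0.336 CPM and was below the threshold with an excess of 0.62. Reads that fit both entries could be split between them in ways the table does not show. The last 3 of the 7, named after their values were seen, were NRCAM, a neuronal cell adhesion molecule, TNN (tenascin-W), a matrix glycoprotein, and a cadherin fragment; they were at 1.4 to 2.52 CPM in presumptive forelimb HH15 and under 1 CPM in the other 5 libraries.

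Receptors, channels and transporters made up the largest role among the named members. SCARB1, a scavenger receptor that takes up cholesterol from high-density lipoprotein, had the largest excess of any member with a gene name. It was at 55.1 CPM in presumptive forelimb HH15 (49.9 to 60.8, 393 reads), 1.51 in the HH19 forelimb, 2.29 in the HH18 hindlimb, 1.84 in neck, 2.42 in flank and 7.06 in flank and neck, 7.81-fold above the last. In the table it overlaps UBB, a polyubiquitin gene, on the other strand. UBB was at 1346 CPM in presumptive forelimb HH15 and 1089 to 1808 in the other 5, so it did not share the order, but strand assignment is again not given. IL13RA1, a subunit of the receptor for interleukin 13, was at 22.6 CPM (19.3 to 26.3), 2.14, 1.25, 2.46, 7.98 and 2.46 in the same order of libraries. Its excess of 1.39 was set by flank and became 2.77 without flank HH19.

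The other 9 of this group were at 1.26 to 4.07 CPM in presumptive forelimb HH15, and all but GRM8 were named after their values were seen. 2 of them belong, like PCDH15, to the hair bundle of the inner ear in mouse and human: the phosphatase PTPRQ and the very large adhesion receptor GPR98. No list of hair bundle genes was counted, so this grouping has no share over all genes beside it and is no result. PTPRQ had 3.65 CPM (26 reads) in presumptive forelimb HH15, 0 in the HH19 forelimb, hindlimb HH18 and neck, 0.121 in flank and 0.112 in flank and neck. GPR98 had 4.07 CPM (29 reads), 0, 0, 0, 0.483 and 0.560. OCA2, a membrane protein of the melanosome, had 2.80 CPM (20 reads) and no read elsewhere, at least 7.44-fold higher. The follicle-stimulating hormone receptor FSHR had 3.65 CPM, and 1.21 in flank. The transporters ABCB1 and ABCA13, the receptor tyrosine kinase ROS1, the glycine receptor subunit GLRA2 and the glutamate receptor GRM8 had 9 to 16 reads in presumptive forelimb HH15 and under 1 CPM in every other library.

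**Figure D4:**
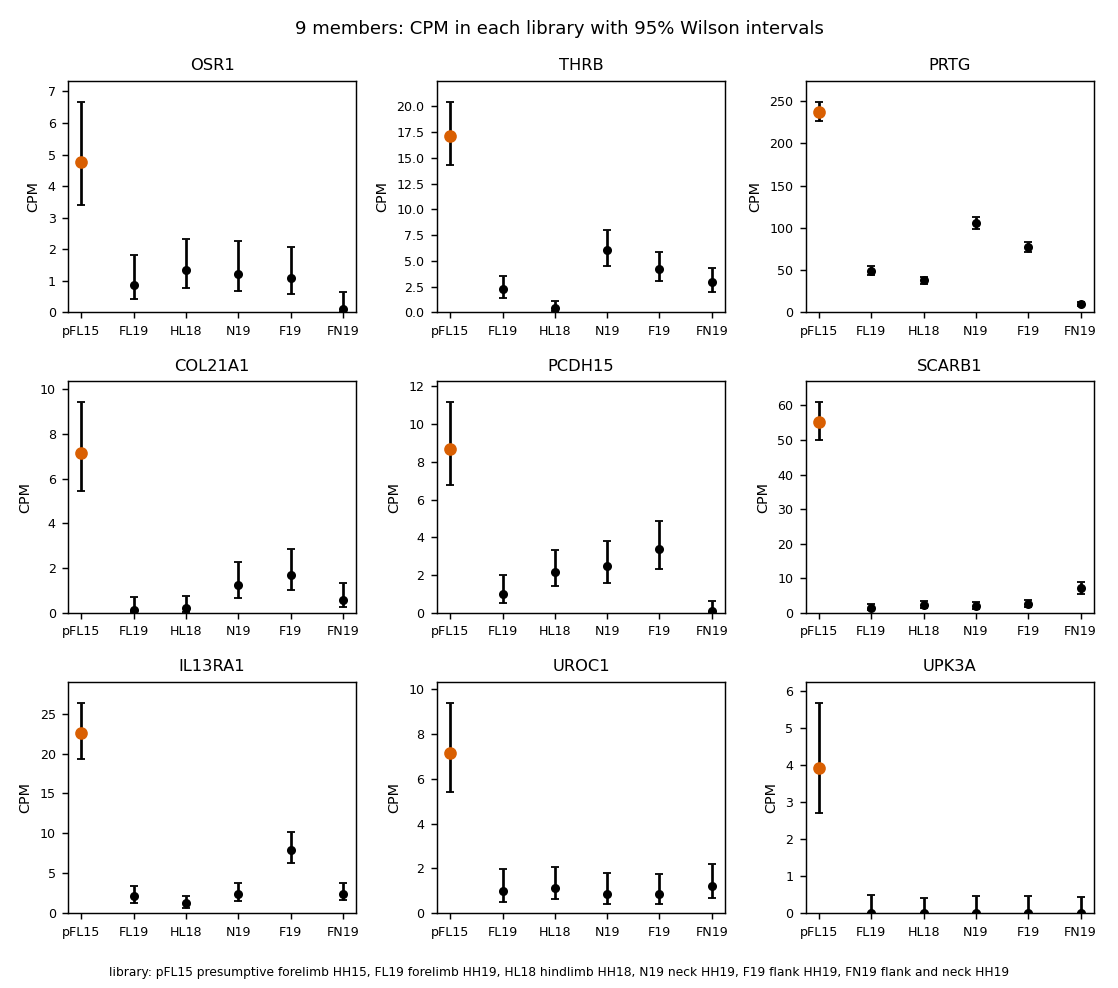
Points give CPM in each library for 9 members, with bars for the 95% Wilson interval, which covers counting error only, and presumptive forelimb HH15 in orange. For each of the 9 the HH15 interval lies above the other 5, and PRTG, IL13RA1, THRB, COL21A1 and PCDH15 have neck or flank HH19 as the next library.

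The 4 enzymes included 1 gene at more than 5 CPM. UROC1, urocanase of the histidine breakdown pathway, was at 7.15 CPM in presumptive forelimb HH15 (5.44 to 9.40), and at 1.01, 1.14, 0.860, 0.846 and 1.23 CPM in forelimb HH19, hindlimb HH18, neck, flank and flank and neck. It was 5.8-fold above the next library, and the other 5 lay within a narrow band. CYP2H1 (a chicken cytochrome P450), the disaccharidase SI and the liver glycogen synthase GYS2, the first 2 named after their values were seen, were at 1.26 to 2.52 CPM in presumptive forelimb HH15 and under 1 CPM elsewhere.

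The 3 epithelial members were low in number of reads, and epithelial markers as a whole were read in this mesenchyme library. The keratin KRT15 was at 3.79 CPM in presumptive forelimb HH15 (27 reads), 0.126 in the HH19 forelimb, 0.208 in the HH18 hindlimb, 0.369 in neck, 0.967 in flank and 0.224 in flank and neck. UPK3A, a uroplakin of the bladder lining, had 3.93 CPM (28 reads) and no read elsewhere, at least 10.4-fold higher. MUC16, a membrane mucin, had 1.68 CPM and 1 read outside the HH15 library. UPK3A and MUC16 were named after their values were seen. Of 14 surface ectoderm and epithelium genes measured, 5 were highest in presumptive forelimb HH15 (35.7%, beside 16.5% of all genes), and, of the 15 that the files list, 12 were at 1 CPM or more there and none was at 0. Their summed level was 310 CPM in presumptive forelimb HH15, 55.5 in the HH19 forelimb, 55.5 in the HH18 hindlimb, 200 in neck, 260 in flank and 77.4 in flank and neck. The sum is mainly the simple-epithelium keratins KRT8 (118 CPM in the HH15 library, 118 in flank) and KRT19 (100 and 67.8), which mesothelium, the lining of the body cavity, also carries. The part of epithelial or mesothelial cells in the levels of these members was not tested.

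Among the 10 cytoplasmic and cytoskeletal members, 4 were at more than 10 CPM. KLHL25, a substrate adaptor of a cullin ubiquitin ligase, was at 11.9 CPM in presumptive forelimb HH15 (9.64 to 14.7), 3.64 in the HH19 forelimb, 1.87 in the HH18 hindlimb, 3.93 in neck, 2.66 in flank and 3.47 in flank and neck, 3.03-fold above neck. TBC1D30, of the family that switches off Rab GTPases, was at 24.3 CPM, 7.29, 10.9, 10.2, 4.96 and 2.58 in the same order. AFAP1L2, an actin-associated adaptor protein, was at 16.1 CPM, 2.14, 1.87, 7.13, 3.87 and 6.83. All of these reached 1 CPM in every library and differ from the others by degree.

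NEB (nebulin, the ruler protein of muscle thin filaments) was at 20.9 CPM in presumptive forelimb HH15, 7.79 in the HH19 forelimb, 9.14 in the HH18 hindlimb, 9.83 in neck, 9.06 in flank and 6.05 in flank and neck. Of 6 muscle genes measured 1 was highest in the HH15 library (16.7%, beside 16.5% of all genes). None was a member, near the share of 0.699% of all genes. Of the other 6 of this group 5 are named, after their values were seen. DNAH8, a dynein heavy chain of motile cilia, had 4.91 CPM in presumptive forelimb HH15 and under 1 CPM in the other libraries. MAP7, a microtubule-binding protein, FAM13C1, HEATR7A and C1orf34 were at 2.66 to 3.23 CPM, and under 1 CPM in each other library. The 2 secreted members, a ligand of the tumor necrosis factor superfamily and the protease inhibitor SPINK6, also named after their values were seen, had 10 and 8 reads, and SPINK6 had none outside the HH15 library.

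The small structural RNAs included the member with the most reads, a 5.8S rRNA entry at 975 CPM. These RNAs lack a poly(A) tail as a rule. The 15 members were of 9 kinds, with 2 entries of 5.8S rRNA, 2 of 5S rRNA, 5 of the spliceosomal RNA U1, and 1 each of U5, U6atac, U3, U13, Y RNA and vault RNA. Together they summed to 2494 CPM in presumptive forelimb HH15, 904 in the HH19 forelimb, 944 in the HH18 hindlimb, 415 in neck, 504 in flank and 682 in flank and neck. The other 72 members summed to 1642, 457, 479, 317, 341 and 364 CPM. ENSGALG00000022552, an entry that overlaps 5.8S rRNA, gives 934 CPM of the HH15 sum. Without it the sums were 709, 108, 91.6, 181, 153 and 81.2 CPM, with neck and flank above both later limb buds, and PRTG alone gave 237 of the HH15 sum.

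The 5S rRNA entries of chromosome 9, 1 on each strand, had the largest excess of this class. The entry on the minus strand was at 74.0 CPM in presumptive forelimb HH15, 10.2 in the HH19 forelimb, 11.8 in the HH18 hindlimb, 9.09 in neck, 7.98 in flank and 6.27 in flank and neck, 6.25-fold above the next. Its partner on the plus strand had 71.5 CPM in the HH15 library and 5.15 to 11.7 in the others. Over both entries the 5 later libraries ran from 5.15 to 11.8 CPM, each far below the HH15 library. The minor spliceosomal RNA U6atac was at 15.3 CPM against 2.69 to 3.33, Y RNA at 24.3 against 4.99 to 6.83, and vault RNA at 4.77 against 0.242 to 0.560. The Y RNA entry spans 17346 bases and the minus-strand 5S entry 5003, whereas the U6atac entry spans 129. Whether the long entries hold other transcripts or further copies was not determined.

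5.8S rRNA, the short RNA of the large ribosomal subunit, behaved otherwise, with the later limb buds in between. Its 2 entries summed to 1788 CPM in presumptive forelimb HH15, 661 in the HH19 forelimb, 733 in the HH18 hindlimb, 263 in neck, 358 in flank and 528 in flank and neck. How reads that fit both entries were counted is not given. The nucleolar RNA U3, which acts in the cutting of ribosomal RNA precursors, was at 298 CPM, 124, 117, 72.2, 74.2 and 82.1. U13, a nucleolar RNA of the same kind, was at 7.71 CPM, 2.51, 2.08, 0.123, 0.604 and 1.12. For these RNAs both limb buds exceeded neck, flank and flank and neck. The next library after presumptive forelimb HH15 was forelimb HH19 for 7 of the 15 and hindlimb HH18 for 5. Among the other genes highest in presumptive forelimb HH15 these shares were 22.1% and 25.0%. Copies of 5S rRNA, 5.8S rRNA and U1 may share reads, so the 15 are not separate measurements.

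U1, the RNA that recognises the start of introns, had all 5 of its measured entries in the set. The 3 entries of chromosome 3 were at 48.7 to 50.1 CPM in presumptive forelimb HH15 and 20.7 to 21.5 in the HH19 forelimb, the next library. The 3 lay close together in every library. Reads of near-identical copies cannot be assigned to 1 of them, so the 3 are not separate measurements. The entry of chromosome 5 was at 38.0 CPM against 18.1, the unplaced entry at 20.6 against 5.4. U5, an entry of 1099 bases, had 2.94 CPM against 0.784 at most.

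Not every small RNA stood out in the HH15 library. Of 107 small structural RNA entries measured, 15 were members (14%, beside 0.699% of all genes) and 51 were highest in presumptive forelimb HH15 (47.7%, beside 16.5%). Copies of the same RNA, such as those of 5S rRNA, 5.8S rRNA and U1, may share reads. These are thus counts of entries and not of separate measurements. Small nucleolar RNAs gave 2 members of 68 (2.94%, beside 0.699%), and 28 of the 68 were highest there (41.2%, beside 16.5%). Their summed level was 989 CPM there against 631 to 853 in the others. 7SK RNA was at 67.6 CPM there, 79.5 in the HH19 forelimb and 18.5 to 34.5 in the remaining libraries. Neither of its 2 measured entries was a member. The spliceosomal RNA U2, with 1 measured entry, also had 0 members, although its sum was highest there, at 55.3 CPM against 14.6 to 34.9. MicroRNA entries gave 0 members of 50 and histone entries 0 of 21, both near the 0.699% of all genes. The class was singled out after its values were seen, RNA quality measures are not used here, and the part of poly(A) selection or RNA quality in these levels was not tested. Without the small structural RNAs the set holds 72 genes.

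**Figure D5:**
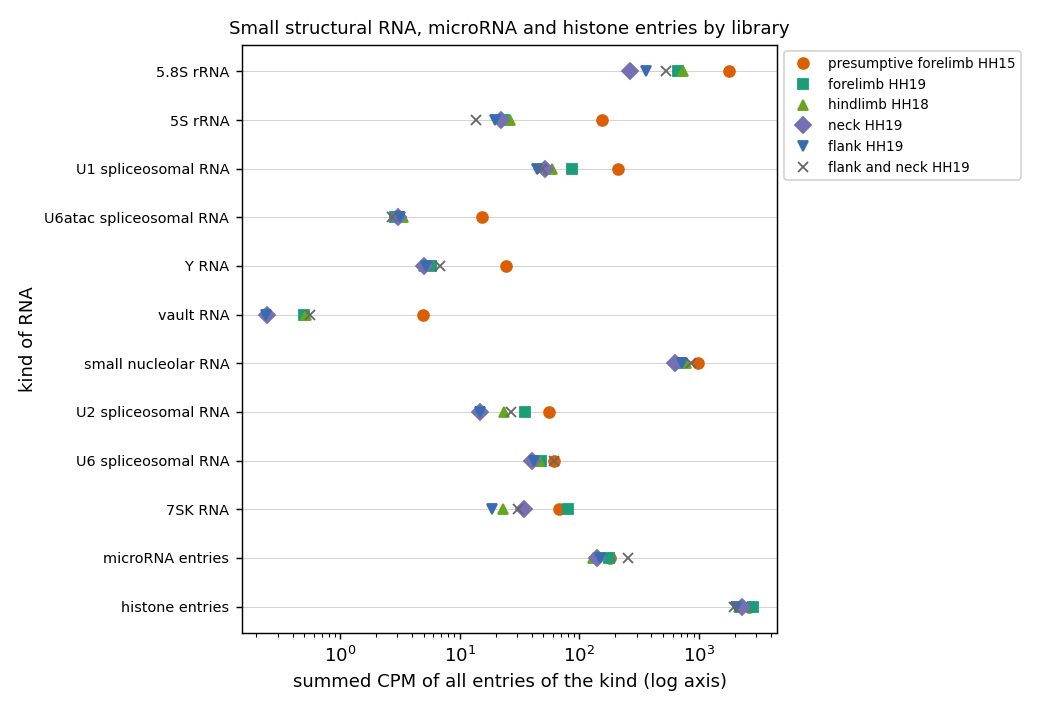
Points give the summed CPM of all entries of a kind of RNA in each of the 6 libraries on a log axis. Presumptive forelimb HH15 (orange) stands to the right for 5.8S and 5S rRNA, U1, U6atac, Y and vault RNA, and lies within or near the other libraries for 7SK, U6, microRNA and histone entries.

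The 31 members with an identifier only made up 35.6% of the set, against 17.5% of the genes measured. ENSGALG00000022359 had the largest excess of all members, 2.95, with 7.57 CPM (54 reads) in presumptive forelimb HH15, 0.112 in flank and neck and 0 in the other 4 libraries. ENSGALG00000022562 was at 9.96 CPM, 0, 0.416, 0, 0.604 and 0.784. ENSGALG00000018401 was at 16.3 CPM, 0.503, 0, 0.983, 0.121 and 1.90. These 3 were at 1.90 CPM or less outside the HH15 library. ENSGALG00000022562 and ENSGALG00000018401 each overlap an entry of LOC777108 on the other strand. For ENSGALG00000022562 that entry also overlaps a 5.8S rRNA entry. With the use of strand not given, reads in the shared stretches cannot be assigned.

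ENSGALG00000006325 was at 17.2 CPM, with 2.14 in the HH19 forelimb, 1.56 in the HH18 hindlimb and 0.224 to 0.369 in neck, flank and flank and neck. ENSGALG00000022552, at 934 CPM in presumptive forelimb HH15, 349, 388, 137, 188 and 282, overlaps a 5.8S rRNA entry on the other strand and had the order of that RNA, so the pair cannot be told apart here. These 5 were named after their values were seen. For the 31, the next library was flank and neck HH19 in 14, beside 8.91% of the other genes highest in presumptive forelimb HH15. Some of these second places, such as that of ENSGALG00000022359, rest on 1 read. A Wilson interval clear of the other libraries was found for 30, a count that the rule largely fixes.

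Some properties of the annotation that the rule did not use were compared between members and all genes measured. The 41 named members had a median genomic span of 39651 bases against 14878 for all named genes measured, and 29.3% of them spanned more than 100000 bases against 7.21%. Long genes such as GPR98, DNAH8 and NRCAM were among those with few reads, while THRB and NEB, also long, had 122 and 149. The members and the genes measured were not matched for level. On unplaced sequence lay 11.5% of the members and 5.14% of the genes measured, and 18 members (20.7%) overlapped another entry, beside 18.6% of the genes measured.

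The members had no common order among the other 5 libraries. Of the 81 with a read elsewhere, the next library was flank and neck HH19 for 24, forelimb HH19, neck HH19 and flank HH19 for 16 each, and hindlimb HH18 for 9. As shares, flank and neck was next for 29.6% of them and hindlimb HH18 for 11.1%, beside 8.91% and 25.0% of the other genes that were highest in presumptive forelimb HH15. Forelimb HH19, neck and flank were next for 19.8% each, beside 22.1%, 28.9% and 15.1%. Some of these second places rest on 1 or a few reads. Both later limb buds exceeded both neck and flank for 17 members (19.5%), beside 19.9% of all genes measured. Neck and flank both exceeded the limb buds for 22 (25.3%), beside 38.7%. The share of 19.5% is near the background. A member with no read in the limb buds, neck and flank, such as CDX4 or UPK3A, can show neither order. Such members lower both shares, so neither share is a result about the members.

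In each pair of libraries the members are higher in presumptive forelimb HH15 by the rule, so nothing is read from that. Their median difference was 1.62 against forelimb HH19, 1.77 against hindlimb HH18, 1.65 against neck, 1.63 against flank and 1.72 against flank and neck on the log2(CPM + 1) scale. All genes measured in each pair had medians of 0.10, 0.07, -0.15, -0.0028 and 0.05. At least 2-fold higher in the HH15 library were 6.17%, 6.52%, 3.17%, 3.52% and 9.06% of them. In numbers, 729, 767, 383, 420 and 1104 genes were higher by that much and 405, 383, 1071, 586 and 1318 were lower.

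Pathway and tissue lists held few members, at a share near that of all genes measured. Genes of these lists that are no members are named after their values were seen. Of 446 genes measured in 33 lists, 4 were members (0.897%, beside 0.699% of all genes): OSR1, CDX4, PCDH15 and KRT15. In the same lists 76 genes (17.0%) were highest in presumptive forelimb HH15, beside 16.5% of all genes. The lists of the limb field, with 13 genes measured, Hox genes with 25, the Wnt pathway with 34, FGF with 23, BMP, TGF-beta and activin with 26, retinoic acid with 16 and Hedgehog with 14 had 0 members each under this rule, which leaves the 3 named genes out. With 0.699% of all genes meeting the rule, 0 members in lists of 13 to 34 genes is near the background. It is no result about these pathways. The 0.699% counts the 2 left-out genes that met the threshold, and the list counts do not. The 10 Wnt pathway genes that were highest in the HH15 library included the receptor FZD7, at 478 CPM against 324 in neck, and the transcription factor LEF1, at 249 against 189 in flank.

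The tail bud and caudal list had the highest median excess of the 33, at 0.17 beside -0.41 for all genes measured. That excess is the value the rule used, so the rank is a description. 4 of its 7 measured genes (57.1%, beside 16.5% of all genes) were highest in presumptive forelimb HH15. 1 of the 7, CDX4, was a member, on 9 reads, where 0.699% of all genes met the rule. Next in order was CDX2, followed by the ligand WNT3A, with 1.26 CPM in the HH15 library, 0.242 in flank and 0 elsewhere, an excess of 0.87. The ribosome assembly list had 19 of 30 genes (63.3%) highest in the HH15 library with a median excess of 0.08, and no member. The early embryo and pluripotency list had 3 of 6 (50%), and no member. No member in lists of 30 and 6 genes is near the background of 0.699%. Without flank HH19 the count of list genes in the set was 13 and without neck HH19 it was 7.

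In the tissue marker lists the members were KRT15, CDX4 and OSR1, which stands in both the lateral plate and the intermediate mesoderm lists. Among the genes of the neural tube (9 measured), neural crest (7), somite (8), heart (1), endoderm (4), endothelium (17) and blood (7), 0 were members and 0 were highest in presumptive forelimb HH15. Of all genes measured, 0.699% met the rule and 16.5% were highest there. For lists of this size 0 members is near the background and is no result about these tissues. Whether 0 highest departs from the 16.5% was not tested. Of other tissue lists, limb field had 2 of 13 highest in presumptive forelimb HH15, surface ectoderm and epithelium 5 of 14. Lateral plate had 1 of 11, intermediate mesoderm 1 of 10, muscle 1 of 6, germ cells 1 of 4 and notochord and floor plate 0 of 3. The summed level of the endoderm genes was 30.2 CPM in presumptive forelimb HH15, 9.42 in the HH19 forelimb, 7.69 in the HH18 hindlimb, 601 in neck, 60.4 in flank and 11.1 in flank and neck. For blood the sums were 625, 2357, 3684, 1778, 32652 and 38.2 CPM. The HH15 library thus lay between the others in both.

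Entries known by an identifier only are left aside here. At the threshold, the named members just inside were GYS2 with an excess of 1.007, GRM8 with 1.010 and NEB with 1.016. Just outside were a 5S rRNA entry of chromosome 2 with 0.996, the ovo-type factor OVOA with 0.992 and RFXDC1 with 0.987. At 0.982 CPM, RFXDC1 was below 1 CPM in every library. GYS2, GRM8, OVOA and RFXDC1 had 7 to 10 reads in presumptive forelimb HH15, so 1 read decides on which side they fall.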

How the data were processed

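RNA of 6 chick libraries, 1 for each tissue and stage, was compared. The authors deposited 1 table with a count of reads per gene and library. Its normalised values are CPM, which the authors scaled to the reads counted in the table. The deposited fold columns are a ratio of 2 libraries, and the deposited p-value columns come with no stated test; neither was used. Per the submitters' processing notes TopHat 1.4.0 and galGal4 were used, without a stated role. The read counter, the annotation and the use of strand are not given in the sources used here. The table's chromosome names were not matched to a genome, so no coordinates and no sequences are given.

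CPM was recomputed from the counts, with a pseudocount of 1 on the log2 scale. The column FN_19 was taken as the flank and neck library by its initials and stage, and 0 columns of other samples were present. A gene was counted as measured when any library gave it 1 CPM. Names came from the table for 15616 entries, from RefSeq accessions (GRCg7b) for 1245, from UniProt entry names for 801, from a table of older names for 103 and from HOX entry names for 16. Named members are the 30 of largest excess among those at 5 CPM or more (fewer qualified), up to 4 per list, and 3 on each side of the threshold. 1 member is counted but not reported here by name. The members and lists were chosen with earlier results of these data known. With 1 library per group no test was run, and total reads limit precision as the Wilson intervals show.

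Alternatives were other pseudocounts, thresholds and a filter on low values, TMM (edgeR 4.0.16) and DESeq2 1.42.0 size factors in R 4.3.3 used for scaling alone, a total without the 10 most counted genes, each other library left out, and, added after the data were seen, removal of the small structural RNAs. Calculations used Python 3.11.15, numpy 2.4.6 and pandas 2.3.3, and the rule was tested on simulated data. The simulated libraries shared a single mean profile and differed by counting error alone, apart from the raised genes. Only genes at a mean of 5 CPM or more were raised, so detection of lower genes was not simulated.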

Additional observations from a re-analysis of the deposited data

How the results depend on the processing

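No paired analysis was possible because each group has 1 library and the labels carry no replicate numbers. The 87 members became 85 with TMM sizes (82 of them shared), 87 with DESeq2 sizes (85 shared), 79 with a total that leaves out the 10 most counted genes, 72 without small structural RNAs and 84 by clear Wilson intervals. They became 185 with a pseudocount of 0.1, 21 with 5, 34 with a filter at 5 CPM, 24 at a 3-fold and 313 at a 1.5-fold threshold. Leaving out 1 library gave 95 to 132 members, most without flank HH19. All 87 stayed in each time by construction, since leaving out a library cannot raise the highest of the others. The share of all peaking genes that peak in presumptive forelimb HH15, 11.4%, became 15.6% with a pseudocount of 0.1, 6.34% with 5, 5.97% with the filter and 15.6% at 1.5-fold, and 11.7% to 17.8% with 1 library left out. The 4 list genes became 10, 0, 1, 0 and 22 with a pseudocount of 0.1, of 5, the filter, 3-fold and 1.5-fold, and 4 to 13 with 1 library left out.

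Genes at least 2-fold higher in presumptive forelimb HH15 than the HH19 forelimb, the HH18 hindlimb, neck and flank were 1162, 1196, 602 and 714 with a pseudocount of 0.1, and 410, 426, 196 and 204 with the filter. With flank and neck as the fifth, they were 233, 258, 107, 115 and 487 with a pseudocount of 5. At 3-fold they were 236, 263, 117, 102 and 361, and at 1.5-fold 1771, 1731, 1062, 1329 and 2622. Scaling changed the sign of some small medians of all genes: TMM moved them from 0.10 to -0.0021 against the HH19 forelimb, 0.07 to -0.020 against the HH18 hindlimb and 0.05 to -0.013 against flank and neck, and from -0.15 to -0.03 against neck, which DESeq2 sizes brought to 0.00014. The excess of each named member, as defined above, stayed positive under the alternatives run. Members named after their values were seen were not part of this check. Each member starts at least 2-fold above the next library, so a positive sign is nearly fixed by the rule. Low reads limit the set, since 53 of 87 members were under 5 CPM. In these changes beyond fewer or more genes passing, the cause was not tested.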

Other observations

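Some genes outside the set were highest in presumptive forelimb HH15 by less than 2-fold and were named after their values were seen. Of 25 Hox genes measured 5 were highest there (20%, beside 16.5% of all genes). HOXB1 came nearest to the threshold, with 77.7 CPM in presumptive forelimb HH15, 17.2 in the HH19 forelimb, 10.5 in the HH18 hindlimb, 40.1 in neck, 25.5 in flank and 2.91 in flank and neck. HOXB8 was at 247, 128, 33.0, 39.2, 175 and 21.4 CPM in the same order, so flank was next for it and neck for HOXB1. Of 23 axon guidance genes 4 were highest in the HH15 library (17.4%), among them the semaphorin SEMA3A at 115, 22.5, 29.3, 72.0, 48.8 and 24.0 CPM. The semaphorin receptor NRP2 was at 237, 32.7, 88.4, 155, 138 and 48.4 CPM. Neck was the next library for both. With 1 library per group none of these differences was tested.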
